A study of Rattus norvegicus with 18 samples.

Results

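The knee synovium of rats with the cold model of adjuvant-induced arthritis (AIA-cold) was compared with that of normal control rats across all genes. The comparison used the 3 arrays labelled AIA-cold and the 3 labelled normal control, which is 6 of the 18 arrays of the series. All animals were male Lewis rats, an inbred strain, aged 6 to 8 weeks, with 6 animals assigned to each group per the treatment protocol, and no group carried a mutant allele. AIA-cold rats carried adjuvant arthritis in a cold form and received no drug that the labels name, while control rats had no arthritis. The other groups used below were AIA (adjuvant arthritis alone) and AIA-hot (its hot form), 3 arrays each. Neither the way the cold and hot forms were produced nor whether an array held 1 animal or a pool is given in the sources used here. The p-values measure the spread between arrays of a group, which may be technical in part. That spread was estimated over all 18 arrays, drug-treated groups included. The series asks which constituents of an herbal formula act against the cold form of arthritis, and this comparison sets the untreated cold form against healthy tissue.

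Adjuvant arthritis is an immune-driven joint disease of rats that serves as a model of rheumatoid arthritis. The synovium is a thin membrane of lining fibroblasts and macrophages over fatty and fibrous connective tissue, and in arthritis it takes up leukocytes that release cytokines, chemokines and proteases. Its cells also respond to adrenal glucocorticoids, which act through a nuclear receptor to induce genes such as Fkbp5 and Zbtb16 and to limit inflammation.

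All levels below are log2 signals relative to the 75th percentile of the same array, so that a level of 0 is the signal at that percentile, and differences are AIA-cold minus control on that scale. Control replicate 1 stood apart: the 75th percentile was 277.1 to 304.0 signal units on the AIA-cold arrays, against 68.9 on control replicate 1 and 282.7 and 269.0 on the other controls. The share of probes well above background was 64.2% to 68.3% in AIA-cold, against 43.3% on control replicate 1 and 62.8% and 59.7% on the other controls. The cartilage list averaged -0.13, -0.15 and 1.45 in AIA-cold, against 4.94 on control replicate 1 and -1.15 and -0.04 on the other controls. A second array, AIA-cold replicate 3, was high in bone and marrow genes: the osteoblast list averaged 1.09 on it, against -2.12 and -2.36 on the other AIA-cold arrays and 0.93, -2.23 and -1.45 in control. Neutrophil genes averaged 0.86 on AIA-cold replicate 3, against -1.29 and -1.07 on the others of its group. The 3 AIA-cold arrays lay on 1 slide and the 3 controls on another, so slide and group cannot be told apart. In whole tissue, fewer cells of a type and less RNA per cell cannot be told apart either. The defining lubricin gene of the synovial lining, Prg4, was bright on all 6 arrays, between 6.48 and 8.02, and fat, muscle, cartilage and bone genes were present beside it.

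**Figure D1:**
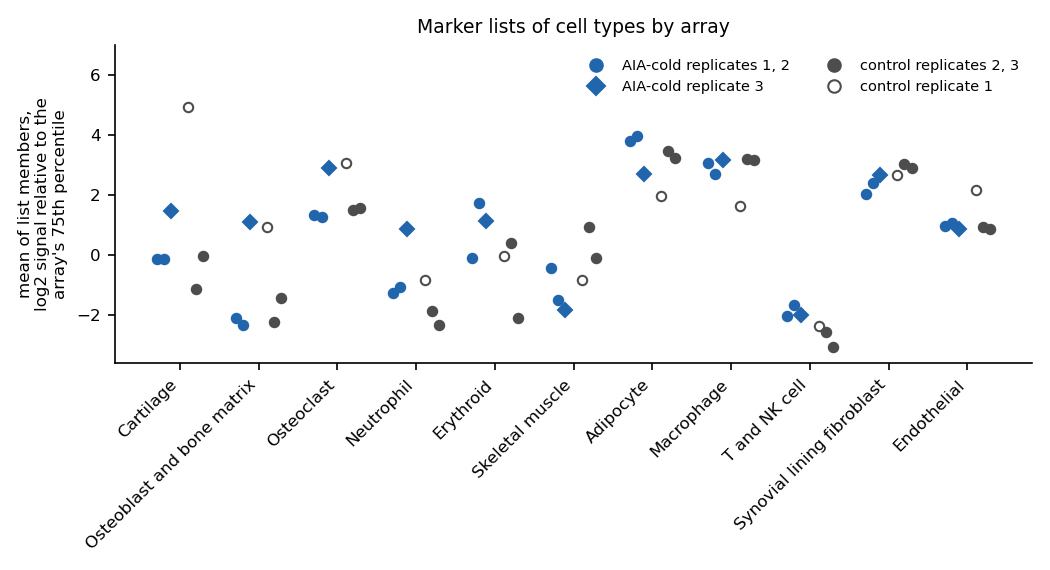
Mean level of the measured members of 11 marker lists (vertical axis, log2 signal relative to the array's 75th percentile) on each AIA-cold array (blue, replicate 3 as a diamond) and each control array (grey, replicate 1 hollow). Control replicate 1 is highest in cartilage genes at 4.94, and AIA-cold replicate 3 is high in bone and neutrophil genes.

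Between AIA-cold and control 126 of 23602 genes passed limma's test at a Benjamini-Hochberg adjusted p under 0.05, which is 0.534% of those tested. Of these, 57 (0.242%) were higher in AIA-cold and 69 (0.292%) lower, and 60 had a gene symbol. The differences ran from -3.65 to 3.83, and 94 of the 126 were over 2-fold. At an unadjusted p under 0.05 there were 1760 genes higher (7.46%) and 2645 lower (11.2%), and the arrays of both groups did not overlap for 2554 genes higher (10.8%) and 3330 lower (14.1%). Without control replicate 1, 45 genes passed (0.191%), 29 of them among the 126, and all 126 kept their sign. Control replicate 1 was the highest control array for 52 of the 69 lower genes. The count also rested on single AIA-cold arrays, being 1 without AIA-cold replicate 1, 0 without replicate 2 and 79 without replicate 3, and it was 297 without control replicate 2. The fit took its spread from all 18 arrays, and with only the AIA-cold and control arrays in it the count was 0. The split moved with the scaling: 131 genes were higher and 92 lower with quantile normalization, and 134 higher and 94 lower with the authors' deposited values.

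**Figure D2:**
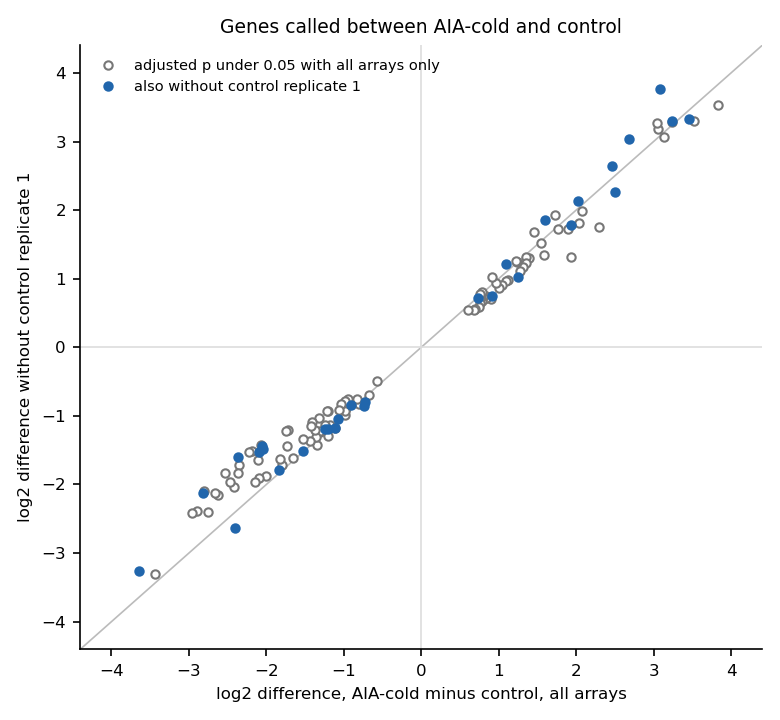
Log2 difference, AIA-cold minus control, with all arrays (horizontal axis) and without control replicate 1 (vertical axis) for the 126 genes that passed with all arrays. The 29 filled points also passed without that array, all points keep their sign, and many of the lower genes lie nearer 0 on the vertical axis.

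The glucocorticoid-responsive genes Zbtb16 and Fkbp5 were among the genes most clearly higher. Zbtb16, a zinc-finger transcription factor induced by glucocorticoids, had levels of 0.77, 0.45 and 0.20 in AIA-cold, against -3.23, -2.74 and -2.97 in control. It rose by 3.46 ± 0.45 (SE; 11-fold; limma adjusted p = 0.0136), and by 3.33 without control replicate 1 (adjusted p = 0.0353). Under an alternative background correction (normexp) it rose by 1.77 (limma adjusted p = 0.0221). Zbtb16 was well above background on 2 of 3 control arrays. The array carries 2 probes for it, both on chromosome 8 of the rat build rn4, and they did not give the same size of change. The probe used, at chr8:51934505-51934564, and the dimmer probe, at chr8:52091263-52091322, are designed oligonucleotides of 60 bases and are shown because the size of the Zbtb16 result depends on which is read:
Zbtb16 probe used: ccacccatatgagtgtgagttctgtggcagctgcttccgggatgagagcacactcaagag
Zbtb16 second probe: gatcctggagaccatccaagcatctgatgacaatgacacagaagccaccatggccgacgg
The second probe read -1.28, -1.51 and -1.64 in AIA-cold, against -1.78, -2.45 and -2.79 in control, a difference of 0.86 ± 0.40 (SE). Both probes were higher on every AIA-cold array than on any control array.

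Fkbp5, a co-chaperone that lowers the affinity of the glucocorticoid receptor for hormone, had levels of 4.74, 3.93 and 4.08 in AIA-cold, against 1.31, 2.14 and 1.82 in control. It rose by 2.50 ± 0.35 (5.64-fold; limma adjusted p = 0.0147), with 1.59 to 2.62 over its 3 probes and 2.27 without control replicate 1 (adjusted p = 0.0427). No AIA-cold array came near the control arrays. Of the 18 measured members of the glucocorticoid-induced list, these 2 passed higher and 0 passed lower, against 0.534% of all genes. At an unadjusted p under 0.05, 6 members were higher and 2 lower, against 7.46% and 11.2% of all genes. The list's median difference was 0.48 (0.19 without control replicate 1), against -0.04 over all genes. Pdk4, which turns off pyruvate use, had levels of 4.4, 4.23 and 3.42 in AIA-cold, against 0.10, 2.12 and 2.01 in control (adjusted p = 0.0890). Angptl4, an inhibitor of lipoprotein lipase, lay at 3.57, 3.33 and 2.57 in AIA-cold, against -0.59, 0.80 and 1.07 in control (adjusted p = 0.0922). Dusp1, a MAP kinase phosphatase, was lower in AIA-cold, by -1.16 ± 0.37, so the list held members on both sides of 0.

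**Figure D3:**
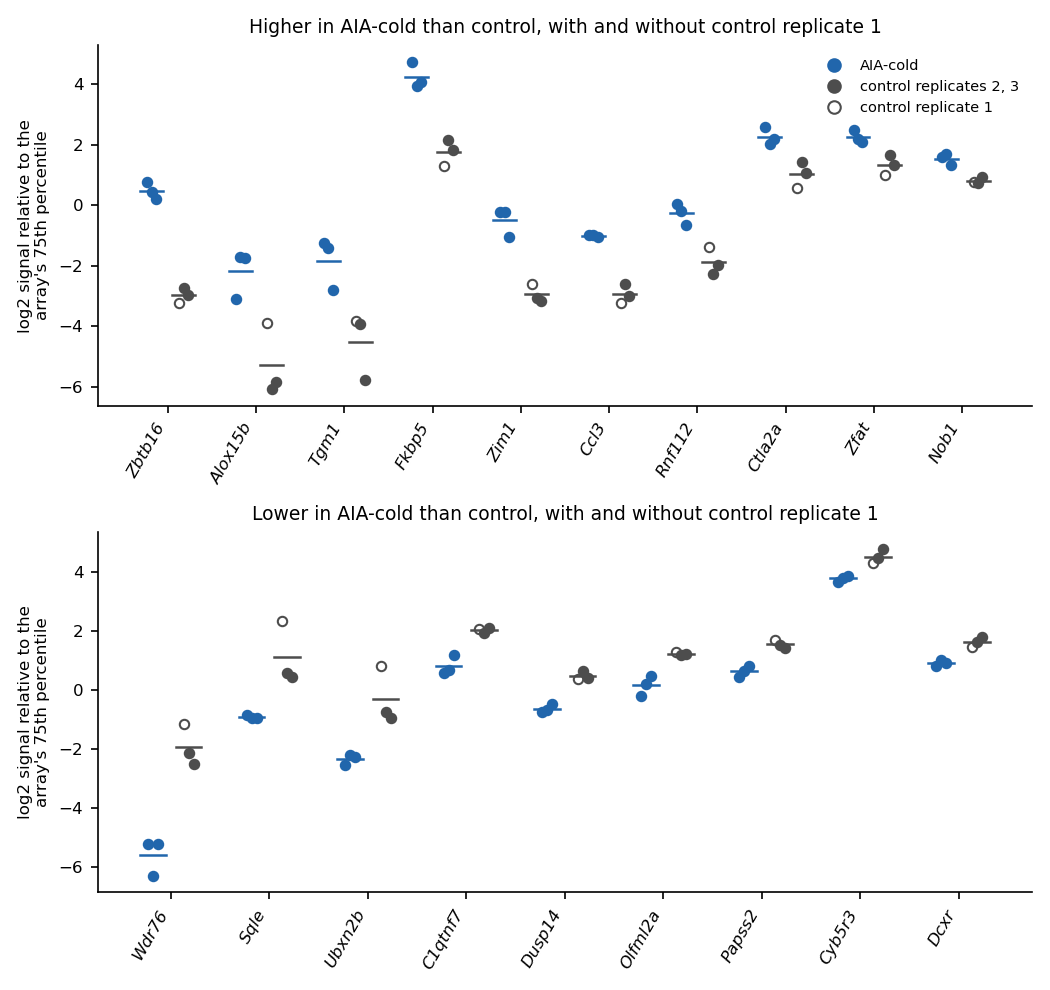
Level of each gene (vertical axis, log2 signal relative to the array's 75th percentile) on the AIA-cold arrays (blue) and the control arrays (grey, replicate 1 hollow), with group means as lines, for the 19 genes with a symbol that passed both with all arrays and without control replicate 1. The 10 upper genes are higher and the 9 lower genes are lower on every AIA-cold array than on any control array. None of the 126 genes that passed with all arrays overlapped between the groups.

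Alox15b, a lipoxygenase that oxidises arachidonic acid, and Zim1, an imprinted zinc-finger gene beside Peg3, were higher in AIA-cold than in control and also than in AIA-hot. Alox15b read -3.11, -1.72 and -1.75 in AIA-cold and was well above background on 3 of 3 of those arrays, but on 0 of 3 control, AIA and AIA-hot arrays, so that among these groups it passed the filter on dim probes through AIA-cold alone. It was at least 1.95-fold higher than control (limma adjusted p = 0.0235) and at least 3.06-fold without control replicate 1 (adjusted p = 0.0078). The bound was at least 2.41-fold over AIA (adjusted p = 0.0660) and at least 2.98-fold over AIA-hot (adjusted p = 0.0382). For Zim1 the levels were -0.23, -0.21 and -1.04 in AIA-cold, against -3.01, -2.05 and -2.52 in AIA, -2.76, -3.09 and -3.0 in AIA-hot and -2.59, -3.08 and -3.18 in control. No array of another of these groups reached the lowest AIA-cold array. Zim1 rose by 2.46 ± 0.32 over control (5.49-fold; adjusted p = 0.0136) and by 2.46 ± 0.32 over AIA-hot (adjusted p = 0.0382), and differed from AIA by 2.03 (adjusted p = 0.0931). These were the 2 genes of 23601 tested that passed between AIA-cold and AIA-hot (0.00847%), and 1295 genes had an unadjusted p under 0.05 there. With no filter on dim probes 0 genes passed limma's test between them, with 1749 at an unadjusted p under 0.05. Between AIA-cold and AIA 0 of 23602 genes (0%) passed limma's test, with a smallest adjusted p of 0.0625 and 2136 genes at an unadjusted p under 0.05. The probe of each gene in rn4 is shown because each gene was read by 1 kept probe:
Alox15b probe, chr10:55952102-55952161: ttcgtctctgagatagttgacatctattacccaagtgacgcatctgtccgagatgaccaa
Zim1 probe, chr1:65555877-65555936: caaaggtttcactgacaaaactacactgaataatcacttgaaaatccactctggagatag
Under normexp background correction Alox15b differed from control by 0.18 (adjusted p = 0.614) and Zim1 by 1.03 (adjusted p = 0.0544). Of the 12 measured members of the lipoxygenase and leukotriene list Alox15b alone passed against control, while 0.534% of all genes passed.

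Among the other genes that passed with and without control replicate 1, Tgm1, a transglutaminase of the cornified epidermal envelope, was at least 2.51-fold higher in AIA-cold, being well above background on 0 of 3 control arrays (adjusted p = 0.0263; at least 3.94-fold without control replicate 1). Under normexp background correction it differed by 0.41 (adjusted p = 0.198), and 17 of the 40 named genes that passed no longer did so under that correction. Rnf112, a RING finger gene, rose by 1.60 ± 0.28, Ctla2a, an inhibitor of cathepsin proteases, by 1.25 ± 0.20, and Nob1, an endonuclease that matures the RNA of the small ribosomal subunit, by 0.73 ± 0.11. Zfat, a zinc-finger gene, rose by 0.92 ± 0.15 on its brightest probe, while its other probes gave -0.33 and -0.19. Several larger changes passed with all arrays but not when control replicate 1 alone was left out. Gulo, the last enzyme of vitamin C synthesis in rodents, lay at -0.27, 0.07 and -1.57 in AIA-cold, against -3.86, -3.99 and -3.31 in control, where it was well above background on 1 of 3 arrays. The arrays did not overlap between the groups for Gulo, which holds for all 126 genes that passed and was a condition for naming it. The lysophospholipase gene Pnpla7 rose by 2.04 ± 0.33, with a mean of 4.70 ± 0.54 in AIA-cold, against 2.66 ± 0.43 in control (SD, n = 3 each; limma adjusted p = 0.0235). Gprin3, a gene tied to neurite outgrowth, rose by 3.83 ± 0.78 and Dennd2d, an exchange factor for Rab proteins, by 1.77 ± 0.34. With control replicate 1 and AIA-cold replicate 3 both left out, Pnpla7, Gulo and Dennd2d passed (limma adjusted p = 0.0282, 0.0476 and 0.0487). Gprin3 did not pass there (limma adjusted p = 0.0899). Under normexp background correction Gprin3 differed by 1.71 (limma adjusted p = 0.0614) and Gulo by 1.13 (limma adjusted p = 0.0594).

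Among the genes lower in AIA-cold with and without control replicate 1, Dusp14, a phosphatase of MAP kinases, had the smallest p of those named here: its levels were -0.75, -0.68 and -0.48 in AIA-cold, against 0.36, 0.64 and 0.42 in control. It fell by 1.11 ± 0.13 (limma adjusted p = 0.0136), and the difference was -1.17 without control replicate 1 (adjusted p = 0.0107). C1qtnf7, a secreted C1q and tumor necrosis factor related protein, fell by 1.21 ± 0.18, with 0.59, 0.66 and 1.2 in AIA-cold, against 2.08, 1.92 and 2.10 in control. Papss2, which makes the sulfate donor used on cartilage and synovial proteoglycans, fell by 0.91 ± 0.13, with both its probes lower, and the matrix gene Olfml2a fell by 1.08 ± 0.15. Cyb5r3, cytochrome b5 reductase, fell by 0.74 ± 0.15 and Dcxr, a reductase of dicarbonyls and xylulose, by 0.72 ± 0.13. Wdr76, a WD repeat gene, was well above background on 0 of 3 AIA-cold arrays. Its level there was lower by at least 5.56-fold (adjusted p = 0.0202), or by at least 4.25-fold without control replicate 1. These bounds hold for the main processing only. Under normexp background correction Wdr76 had a smaller log2 difference, -1.2 (limma adjusted p = 0.0317). Ubxn2b, a cofactor of the p97 ATPase, showed how far control replicate 1 set a size: it read -2.54, -2.22 and -2.26 in AIA-cold, against 0.81, -0.76 and -0.96 in control. Its difference was -2.04 ± 0.33 with all arrays and -1.48 without that array (adjusted p = 0.0107).

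Others passed lower with all arrays but not when control replicate 1 alone was left out. Irak2, a kinase downstream of the interleukin-1 receptor, read -4.34, -5.47 and -4.31 in AIA-cold, well above background on 1 array, against -0.46, -2.14 and -3.08 in control (adjusted p = 0.0392, and 0.0714 without control replicate 1). On the AIA-cold arrays Megf11, Zfp385b and Chrna9 were well above background 0 times, and on the control arrays 2, 2 and 1 times, so their control means take in dim signals. Hhip, which binds and restrains hedgehog ligands, fell by 1.73 ± 0.35, Slurp1, a secreted ligand of nicotinic receptors, by 1.80 ± 0.31, and Pcdh10, a protocadherin, by 1.42 ± 0.28. Their adjusted p without control replicate 1 ran from 0.0676 for Slurp1 to 0.107 for Hhip. With AIA-cold replicate 3 left out as well, Slurp1 passed (-2.01, limma adjusted p = 0.031). Hhip and Pcdh10 did not pass there (limma adjusted p = 0.17 and 0.155).

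Genes of fatty acid synthesis had the widest gaps in level of any metabolic list, although 0 of 20 measured members passed (0.534% of all genes). Fasn, fatty acid synthase, had levels of 3.20, 3.58 and 3.18 in AIA-cold, against 6.47, 8.40 and 7.74 in control. The difference was -4.21 ± 1.04 (18.6-fold higher in control; limma adjusted p = 0.0695), -4.02 on its other probe and -4.75 without control replicate 1 (adjusted p = 0.0963). The AIA-cold arrays lay together below all control arrays, and the control arrays were spread more widely. In the other arthritis groups Fasn was 8.95, 5.69 and 8.33 in AIA and 6.22, 5.42 and 6.93 in AIA-hot. Scd, the stearoyl-CoA desaturase, lay at 2.31, 2.29 and 3.86 in AIA-cold, against 5.39, 7.39 and 6.77 in control (adjusted p = 0.0690), while its second, dim probe differed by -0.34. Scd2, its paralog, read 1.79, 1.46 and 2.70 in AIA-cold, against 3.57, 4.14 and 3.75 in control (-1.84 ± 0.45; adjusted p = 0.0682). Me1, malic enzyme, and Acaca, acetyl-CoA carboxylase, picked with their values already seen, also did not overlap between the groups. Their differences were -1.44 ± 0.56 and -1.83 ± 0.89. In the list 8 of 20 members lay lower with no overlap, against 14.1% of all genes. The list had a median difference of -0.73, and -1.2 without control replicate 1, against -0.04 and -0.01 over all genes. Of its members 17 of 20 were lower, 6 at an unadjusted p under 0.05, against 11.2% of all genes. The adipocyte list had a median difference of 0.74, and 0.19 without control replicate 1. Its members averaged 3.81, 3.99 and 2.71 in AIA-cold, against 1.96, 3.48 and 3.23 in control, so the arrays overlapped. How the adipocyte and fatty acid synthesis lists relate was not tested. Adipoq, the adipocyte hormone gene, lay at 7.90, 8.32 and 6.86 in AIA-cold, against 5.63, 7.85 and 7.42 in control, so the groups overlapped.

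Cholesterol synthesis genes were lower in the same samples by smaller amounts. Sqle, squalene epoxidase, was nearly equal on the AIA-cold arrays, at -0.86, -0.96 and -0.96, against 2.34, 0.59 and 0.44 in control. It fell by 2.05 ± 0.39 (limma adjusted p = 0.0376), and the difference was -1.44 without control replicate 1, the highest array (adjusted p = 0.0412). Sqle was the 1 member of 26 to pass, against 0.534% of all genes. Idi1, which isomerises isopentenyl diphosphate, read 0.78, 1.02 and 0.58 in AIA-cold, against 1.61, 1.87 and 1.57 in control. For Cyp51, a demethylase of lanosterol, the levels were -0.72, -0.71 and -1.14 in AIA-cold, against -0.07, -0.13 and -0.19 in control. Neither gene overlapped between the groups, and neither passed. Of the 26 members 14 lay lower with no overlap, against 14.1% of all genes. In the list 20 of 26 members were lower, 10 of them at an unadjusted p under 0.05, against 11.2% of all genes, and its median was -0.46 both with and without control replicate 1.

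Glycolysis genes lay lower in AIA-cold, with 1 that passed. Slc2a1, the glucose transporter GLUT1, had levels of 1.36, 1.73 and 1.45 in AIA-cold, against 3.00, 2.68 and 2.78 in control, and fell by 1.31 ± 0.21 (limma adjusted p = 0.0235, and 0.0505 without control replicate 1). Ldha, lactate dehydrogenase A, lay at 1.63, 1.63 and 1.52 in AIA-cold, against 2.55, 2.64 and 2.63 in control (-1.01 ± 0.25; adjusted p = 0.0710). Gapdh, often taken as a constant gene, lay at 5.22, 5.29 and 5.32 in AIA-cold, against 6.19, 6.07 and 5.95 in control (-0.79 ± 0.21; adjusted p = 0.0815), and its probes gave -0.83 and -0.79. Within each group the arrays of Ldha and Gapdh lay close together, and the limma standard error, shared over all 6 groups, is wider than that spread. Of the 21 measured members 17 were lower, 11 at an unadjusted p under 0.05, against 11.2% of all genes, and 1 passed, against 0.534%. The median was -0.57, and -0.49 without control replicate 1. The hypoxia list had a median of -0.05. Slc2a1 is also a gene of that list and was the 1 of its 19 members to pass, against 0.534% of all genes. Its promoter from RefSeq (GRCr8, plus strand, chr5:138002272-138002571) is shown with the letters ACGTG, the core of the element bound by hypoxia-inducible factors, in capitals:
Slc2a1 promoter: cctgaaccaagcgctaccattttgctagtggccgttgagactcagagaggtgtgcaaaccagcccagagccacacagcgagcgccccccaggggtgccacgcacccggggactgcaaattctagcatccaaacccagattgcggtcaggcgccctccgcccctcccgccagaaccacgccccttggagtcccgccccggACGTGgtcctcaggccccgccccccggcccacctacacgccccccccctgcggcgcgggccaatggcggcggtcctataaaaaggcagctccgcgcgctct
The letters ACGTG, on either strand, were found at position -51 relative to the start of the gene. They occur in 19.7% of all 27457 promoter windows of the same length, in 10 of 20 windows of the glycolysis list, in 9 of 14 of the hypoxia list and in 7 of 17 of the glucocorticoid list. Other motifs were searched on both strands. The sterol element TCACNCCAC was in 0 of 20 windows of the cholesterol list (1.13% of all windows). That list has 29 members, and Sqle was among those with no window to search. The glucocorticoid receptor palindrome and the letters AGAACA were not found in the window of Fkbp5, and 0.422% and 20.1% of all windows hold them. Each was in 1 of 17 windows of the glucocorticoid list, the palindrome in that of Map3k6. Zbtb16 had no window to search. A match, or none, describes the letters of the window and nothing more.

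**Figure D4:**
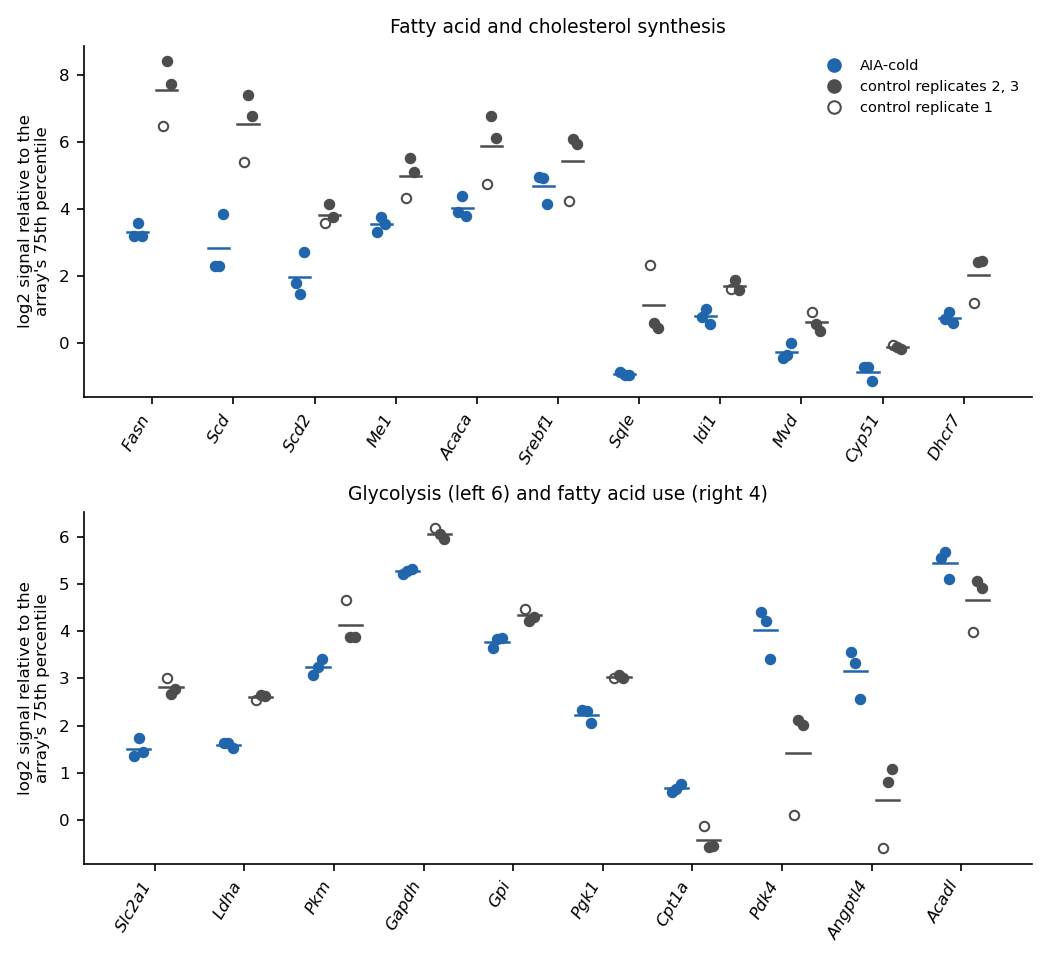
Level of metabolic genes (vertical axis, log2 signal relative to the array's 75th percentile) on the AIA-cold arrays (blue) and control arrays (grey, replicate 1 hollow), with group means as lines. Fasn sits between 3.18 and 3.58 in AIA-cold and between 6.47 and 8.40 in control, while Cpt1a, Pdk4 and Angptl4 lie higher on every AIA-cold array.

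In the fatty acid oxidation list, of 24 measured members, Cpt1a, which admits long-chain fatty acids into mitochondria, had levels of 0.59, 0.66 and 0.76 in AIA-cold, against -0.12, -0.58 and -0.56 in control (1.09 ± 0.25; adjusted p = 0.0637). With all arrays 21 of 24 members were higher and the median was 0.35, but without control replicate 1 the median was -0.06. The list averaged 2.81, 2.96 and 2.36 in AIA-cold, against 1.46, 2.60 and 2.44 in control, with control replicate 1 the lowest.

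Of the chemokine genes Ccl3 and Ccl6 rose in AIA-cold. Ccl3, a macrophage and T cell chemokine, was almost equal on the AIA-cold arrays, at -0.99, -1.0 and -1.06, against -3.23, -2.60 and -3.0 in control. It rose by 1.93 ± 0.24 (3.81-fold; limma adjusted p = 0.0136; 0.0353 without control replicate 1), and it was well above background on 2 of 3 control arrays. Under normexp background correction its difference was 0.65 (adjusted p = 0.0568). Ccl6, a rodent chemokine of myeloid cells, read 4.66, 4.34 and 4.24 in AIA-cold, against 1.22, 3.37 and 2.83 in control, so that control replicate 1 widened its difference: 1.94 ± 0.40 with all arrays (adjusted p = 0.0460) and 1.31 without it (adjusted p = 0.0514). These were the 2 of 20 members of the CC chemokine list to pass, both higher, while 0.242% of all genes passed higher. Ccl5, which lymphocytes release, lay at 1.71, 2.22 and 0.73 in AIA-cold, against -1.90, 0.15 and -0.59 in control (adjusted p = 0.0767). Ccl4, the neighbour of Ccl3 in function, differed by 1.21 ± 0.28 (adjusted p = 0.0637). At an unadjusted p under 0.05, 6 members were higher and 0 lower, against 7.46% and 11.2% of all genes. The list's median was 0.57 (0.31 without control replicate 1). Under normexp background correction it was 0.09, where the median over all genes was -0.21. Ccl2, the monocyte chemokine, differed by -0.01 ± 0.63.

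Among other immune genes 3 rose. Ebi3, a subunit of interleukins 27 and 35, rose by 1.59 ± 0.27 and Cfp, properdin of the alternative complement pathway, by 1.31 ± 0.27, and neither passed without control replicate 1 (adjusted p = 0.0638 and 0.107). Cd209f, a lectin of the DC-SIGN family, rose by 3.05 ± 0.59, with -0.72, -1.37 and -2.32 in AIA-cold, against -4.08, -3.48 and -6.0 in control, where 1 of 3 arrays was well above background. It did not pass without control replicate 1 (adjusted p = 0.0689), and under normexp background correction the difference was 0.57 (adjusted p = 0.153). Il1b, the interleukin 1 beta gene, lay at -0.46, -0.43 and -0.52 in AIA-cold, against -2.01, -1.25 and -1.66 in control (adjusted p = 0.0896). Il1r2, the decoy receptor for that cytokine, differed by 1.94 ± 0.47 (adjusted p = 0.0690). Its arrays did not overlap, and 10.8% of all genes lay higher in that way. In the T and NK cell list 13 of 16 members were higher, 7 at an unadjusted p under 0.05, against 7.46% of all genes. The list had 0 members passing, against 0.534% of all genes. Its median was 0.69 with all arrays and 0.91 without control replicate 1, but -0.13 under normexp background correction, where the median over all genes was -0.21. Nkg7, a cytotoxic granule gene, read -0.40, 0.19 and 0.30 in AIA-cold, against -2.16, -1.58 and -2.08 in control. Of 11 measured class II genes of antigen presentation, 5 were higher at an unadjusted p under 0.05, against 7.46% of all genes, and 0 passed. Without control replicate 1 it was 1 of the 11, against 1565 of 23602 genes. RT1-Da, a class II alpha chain, overlapped between groups, at 5.46, 4.44 and 5.60 in AIA-cold and 2.26, 4.60 and 4.03 in control. For 3 further lists the sign rested on control replicate 1: the median without it was -0.21 for macrophages (0.37 with it), -0.43 for scavenger and lectin receptors (0.38) and -0.10 for complement (0.32).

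**Figure D5:**
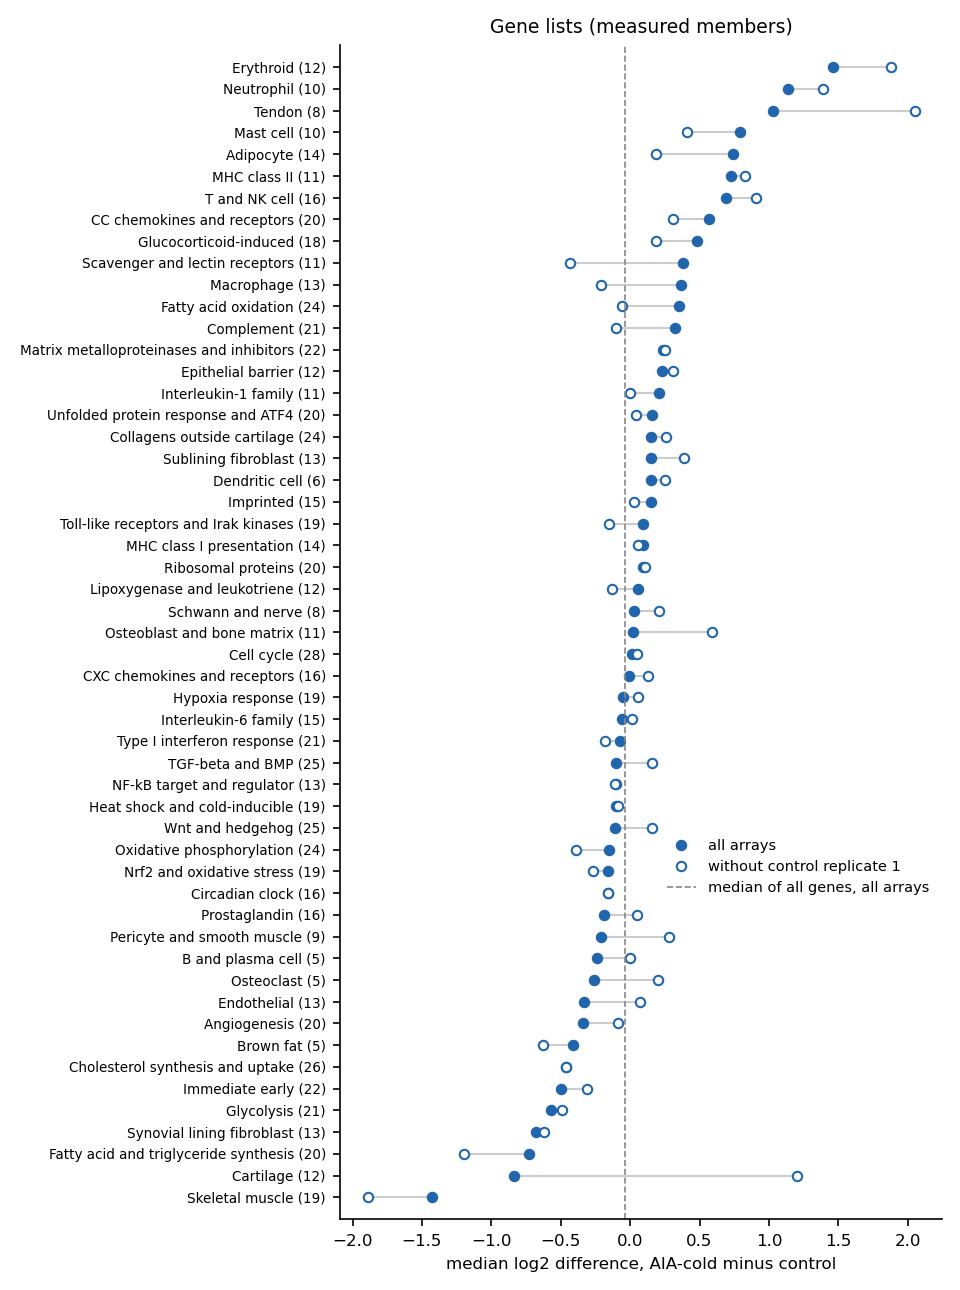
Median log2 difference, AIA-cold minus control, of the gene lists (vertical axis, measured members in brackets) with all arrays (filled) and without control replicate 1 (hollow), with the median of all genes as a dashed line. Fatty acid synthesis, glycolysis and cholesterol synthesis lie below 0 both ways, while cartilage, macrophage and fatty acid oxidation lists change sign.

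Of the 12 genes of an arthritis panel 0 passed, and with 0.534% of all genes passing this count says little about them. The arrays did not overlap for 3 members that lay higher and 2 that lay lower, against 10.8% and 14.1% of all genes. S100a9, a neutrophil alarmin, had levels of 1.79, 2.30 and 4.41 in AIA-cold, against 0.20, 0.23 and -1.2 in control (3.09 ± 1.29; adjusted p = 0.217), with the highest value on AIA-cold replicate 3. The protease gene Mmp13 likewise read 2.22 on AIA-cold replicate 3 and -3.6 and -2.93 on the others of its group, against 0.90, -2.37 and -2.35 in control. Its groups overlapped, and both arrays with high bone genes were the high ones. Il6, a cytokine gene, was well above background on 1 AIA-cold array and 1 control array, and read -4.98, -4.56 and -4.55 in AIA-cold, against -1.75, -3.63 and -3.65 in control. Prg4, lubricin, lay at 6.48, 7.30 and 7.24 in AIA-cold, against 7.32, 8.02 and 7.94 in control (-0.75 ± 0.28; adjusted p = 0.164), and the highest AIA-cold array lay just under the lowest control array.

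In the synovial lining list 11 of 13 members were lower, 5 at an unadjusted p under 0.05, against 11.2% of all genes. By the adjusted test 0 were lower, against 0.292% of all genes, and the median was -0.68 (-0.62 without control replicate 1). Cd55, which shields lining cells from complement, lay at -0.42, -0.37 and 0.30 in AIA-cold, against 0.51, 0.88 and 0.63 in control. Col1a1, the main fibrillar collagen, lay at 8.80, 8.49 and 8.78 in AIA-cold, against 7.11, 7.27 and 7.38 in control (1.44 ± 0.41; adjusted p = 0.10), but its 3 probes gave 0.06 to 1.86. Of 22 immediate early genes 17 were lower, 8 at an unadjusted p under 0.05, against 11.2% of all genes, and 0 by the adjusted test. Without control replicate 1, 5 were lower at that threshold and the median was -0.31, against -0.50 with all arrays. Nr4a1, an orphan nuclear receptor induced within minutes of a stimulus, read 1.14, 1.37 and 1.82 in AIA-cold, against 4.65, 2.28 and 2.95 in control, and its difference was -1.85 ± 0.48 with all arrays and -1.17 without control replicate 1. In all, 17 of the 802 distinct list members measured passed, against 0.534% of all genes, and the lists were chosen with earlier results known.

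The same genes were also read in the other arthritis groups. Zbtb16 averaged 0.47 in AIA-cold, -2.02 in AIA, -1.83 in AIA-hot and -2.98 in control. Fkbp5 read 4.74, 3.93 and 4.08 in AIA-cold, 3.16, 2.29 and 2.53 in AIA, 3.09, 3.78 and 2.93 in AIA-hot and 1.31, 2.14 and 1.82 in control. Il1b and C3, the central complement component, were not highest in AIA-cold: Il1b averaged -0.47 in AIA-cold, -0.87 in AIA, 0.47 in AIA-hot and -1.64 in control, and C3 averaged 1.92, 1.31, 3.00 and -0.06. None of these differences between AIA-cold and AIA or AIA-hot passed, and the comparisons share their AIA-cold arrays.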

How the data were processed

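RNA of knee synovial tissue was measured on single-colour Agilent rat arrays. The deposited scanner files held fluorescence intensity per spot, which the submitters' processing notes credit to Agilent Feature Extraction 10.7, and background-subtracted and detrended per the file headers. A second, deposited table by the authors was read as log2: its scale is not stated, and its values correlated at 0.989 to 1.0 with log2 of the processed signal of the same array. The submitters' processing notes also name limma, with no version.

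Of 41012 gene probes, control and outlier-flagged spots were left out, log2 was taken and each array's 75th percentile subtracted. A probe was kept if all 3 arrays of some group showed it well above background (28274 probes), and each gene was read by its brightest probe. Probes were named from RefSeq (GRCr8): 18348 by accession, 3003 by symbol and 392 by synonym, while 19269 kept the file's name. R 4.3.3 and limma 3.58.1 were used for a fit on all 18 arrays with a mean per group (12 residual and 2.29 prior degrees of freedom), with Benjamini-Hochberg adjustment over all genes. A fold given as "at least" sets the bright group's mean against a floor per array: the dimmest probe still well above background, or the probe's own signal if higher. The fit was tested on simulated data. Alternatives covered normalization, background correction, filter, probe choice, variance model, slide and each array left out. Named genes were those with a symbol that passed with and without control replicate 1. Up to 10 each way were added that passed with all arrays but not without control replicate 1, with no overlap between the groups. Called and smallest-p members of the lists, an arthritis panel, and genes that passed against AIA or AIA-hot were also named. Me1, Acaca, Gapdh and Adipoq fall outside that rule and were picked with their values already seen. The members and lists were chosen with earlier results of these data known. Replicate numbers follow accession order and pair nothing. The number of arrays limits the precision, and drug-treated groups are not described here. Some genes are not reported here.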

Additional observations from a re-analysis of the deposited data

Results flagged for a closer look

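Alox15b and Zim1 differed between the cold and hot models by limma's test of that difference. The fitted log2 difference, AIA-cold minus AIA-hot, was 3.72 for Alox15b, for which 0 arrays of AIA-hot were well above background and the bound is at least 2.98-fold. It was 2.46 for Zim1. Both had an adjusted p = 0.0382. Among the groups compared, Alox15b passed the filter on dim probes through AIA-cold alone, and with no such filter 0 genes passed limma's test between AIA-cold and AIA-hot, with 1749 at an unadjusted p under 0.05. The cause was not tested, and AIA-cold and AIA-hot arrays lay on different slides, so slide and group cannot be told apart.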

How the results depend on the processing

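Against control, the 126 calls became 223 with quantile normalization, 228 with the values of the series table, 203 with normexp background correction and 209 with no filter on dim probes (46 higher and 163 lower). They were 6224 with array weights, where control replicate 1 had a weight of 0.087, and 0 both with only the 2 groups in the fit and with slide as a random block (2986 and 2983 genes at an unadjusted p under 0.05, limma). Leaving out 1 array at a time gave 0 to 297 calls. Leaving out control replicate 1 and AIA-cold replicate 3 together, an alternative chosen after seeing the data, gave 102, with 45 of them among the 126. Against AIA, 0 calls became 15 with quantile normalization, 16 with the series table, 28 with only the 2 groups in the fit, 1157 with array weights and 0 to 4 with 1 array left out. Against AIA-hot, 2 calls became 0 with normexp, with no filter on dim probes, with only the 2 groups in the fit and with slide as a random block, 1 with an intensity trend and robust prior, 3865 with array weights and 0 to 2 with 1 array left out. The cause was not tested. Of the 40 named genes called against control, 0 passed without AIA-cold replicate 1 or without AIA-cold replicate 2, 19 passed without control replicate 1 and 23 under normexp; each kept its direction under the alternatives in which it was tested. Of the 54 lists, 24 kept the sign of their median under all alternatives run, among them fatty acid synthesis (-1.2 to -0.44), glycolysis (-0.62 to -0.42) and cholesterol synthesis (-0.48 to -0.34). No paired analysis was run because the labels link no array of 1 group to an array of another. Signal over background limits the sizes of some genes: 16 of the 126 genes were well above background on no AIA-cold array and 7 on no control array.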

Other observations

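Blood and muscle genes varied by array. All 12 erythroid genes lay higher in AIA-cold on average (median 1.46), but the list averaged -0.09, 1.73 and 1.13 in AIA-cold, against -0.03, 0.39 and -2.12 in control, so the arrays overlapped. Hbb-b1, a beta globin, read 8.40, 8.80 and 8.68 in AIA-cold, against 8.06, 8.22 and 6.49 in control. Skeletal muscle genes lay lower (median -1.43, 17 of 19 members), with list means of -0.45, -1.50 and -1.86 in AIA-cold, against -0.83, 0.93 and -0.10 in control.

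Mast cell proteases lay close together in AIA-cold and were low on control replicate 1. Tpsb2, a tryptase, read 0.37, 0.17 and 0.34 in AIA-cold, against -2.61, -0.06 and -0.18 in control, and Cma1, a chymase, read 2.72, 2.73 and 2.80, against 1.49, 2.53 and 1.92. The list's median was 0.79, and 0.41 without control replicate 1, with 0 of 10 members passing, against 0.534% of all genes.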
